A study of Mus musculus with 18 samples.

Results

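The RAF kinases Braf and Araf and 7 genes that are switched on by ERK signalling and act back on it, Dusp4, Dusp6, Spry2, Spry4, Spred1, Etv4 and Etv5, were followed in 3 mouse lung carcinoma cell lines. These 9 members of 18193 named genes on the array were listed by name, with earlier results of these data known. Each was read from the probe set that was brightest on average. Its other probe sets, 26 in all, served as a check. All 9 passed the filter that left out the lowest 40% of genes, with 10916 genes tested.

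The lines A2C12, betaD5 and cRAF_cMYC had arisen by spontaneous transformation of cells grown from lung tumours of mice aged 8 months that carried both a c-myc and a c-raf transgene, so every array comes from cells of that genotype and none from normal lung. The promoter of the transgenes and whether a line is 1 clone are not given in the sources used here. Each line had been divided into side population (SP) cells, which keep little of the dye Hoechst because membrane transporters export it, and the remaining non-SP cells, and the labels name no treatment. This gave 6 groups of 3 arrays, A2C12 SP, A2C12 non-SP, betaD5 SP, betaD5 non-SP, cRAF_cMYC SP and cRAF_cMYC non-SP, and the study asked how the fractions differ. Nothing in the labels says whether the replicates were separate cultures or sorts, so p-values measure the spread between these samples, which may be technical. RNA came from whole cell fractions, and fewer cells with a transcript and less of it in each cell cannot be told apart.

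RAF kinases stand at the top of the kinase chain in which RAF phosphorylates MEK and MEK phosphorylates ERK. Active ERK raises transcription of its own brakes: DUSP4 and DUSP6 remove phosphate from ERK in the nucleus and the cytoplasm, Sprouty proteins (Spry2, Spry4) dampen signalling from receptors to RAF, and SPRED1 brings neurofibromin to RAS at the membrane. ETV4 and ETV5 are ETS transcription factors that rise with FGF and ERK signals, and in the developing lung they are expressed in the tips of the branching epithelium.

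To show the DNA in front of genes that differed between the lines and of one that did not, the 250 bases before the RefSeq start (GRCm38.p6, written 5′ to 3′ on the strand of the gene) are given for Braf and Spred1, which were lower in A2C12 on every scale used, and for Dusp6, which was not. Capitals mark a cAMP response element (TGACGTCA) or a GC box (GGGCGG on either strand).
Braf, chr6:39725464-39725713, minus strand: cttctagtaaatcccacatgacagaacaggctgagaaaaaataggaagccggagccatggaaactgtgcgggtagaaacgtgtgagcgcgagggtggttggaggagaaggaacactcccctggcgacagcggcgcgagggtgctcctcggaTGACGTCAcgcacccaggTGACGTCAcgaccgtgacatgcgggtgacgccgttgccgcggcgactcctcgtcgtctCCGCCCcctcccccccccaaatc
Spred1, chr2:117120821-117121070, plus strand: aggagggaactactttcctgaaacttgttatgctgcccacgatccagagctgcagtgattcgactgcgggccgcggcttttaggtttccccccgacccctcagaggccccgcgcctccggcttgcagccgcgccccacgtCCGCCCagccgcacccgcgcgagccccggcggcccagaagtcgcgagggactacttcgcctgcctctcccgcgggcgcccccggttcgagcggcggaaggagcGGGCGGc
Dusp6, chr10:99262981-99263230, plus strand: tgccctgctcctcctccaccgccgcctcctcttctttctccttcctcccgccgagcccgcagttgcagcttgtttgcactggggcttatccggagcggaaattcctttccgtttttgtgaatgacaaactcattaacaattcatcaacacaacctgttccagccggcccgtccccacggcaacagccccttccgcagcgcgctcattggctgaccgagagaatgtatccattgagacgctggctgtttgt
The Braf window holds 2 copies of TGACGTCA, which begin 99 and 81 bases before the start, and 1 GC box 23 bases before it. Of 32851 windows of this length in front of RefSeq genes, 1.55% hold TGACGTCA and 0.0304%, or 10 windows, hold it in 2 or more copies. Spred1 has GC boxes 110 and 7 bases before the start, and 32.7% of windows hold one. Dusp6 has neither motif. G and C make up 62% of the Braf window, 70.8% of that of Spred1 and 56.4% of that of Dusp6, against a median of 52.4% over all windows. RefSeq windows were matched for 6 of the 9 members, 7 windows in all, and the ETS motif CCGGAAG (6.91% of all windows) and the AP-1 motif TGAGTCA (4.46%), searched on both strands, were in 0 of these 7. The motifs were chosen after the windows had been seen, and a match describes letters, not a site in use.

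The deposited values are log2 signals, and the array medians lay between 5.80 and 6.06 in A2C12 and between 5.998 and 6.72 in the other lines. Differences between lines are therefore given both on the deposited values and on arrays centred on their own medians. The arrays labelled betaD5 1 correlated at most at 0.925 over genes with the other betaD5 arrays, and at 0.982 and 0.983 with an array labelled cRAF_cMYC. Those labelled cRAF_cMYC 3 reached at most 0.930 within their line and 0.988 with an array labelled betaD5. Both fractions of these 2 pairs stood apart from their label in this way, so the line differences are also given without them. For the labelled origin, 7 of 11 epithelial markers on the array passed the filter, with Epcam and Krt8 among them and Cdh1 below it, and 3 of 8 alveolar type II markers passed, with Sftpc and Nkx2-1 below it.

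A2C12 had lower signals of Braf, Spred1 and Spry4 than the other lines in both fractions, on the deposited and on the centred values, while Dusp4, Dusp6 and Araf showed no called difference there. Etv4 was lower on the deposited values, and on the centred ones it passed the test among SP arrays alone. Among non-SP arrays, 4 of the 9 members were called lower in A2C12 than in the mean of betaD5 and cRAF_cMYC and 0 higher (limma, Benjamini-Hochberg adjusted p under 0.05), on a background where 49.2% of all genes tested were called lower and 2.96% higher (52.2% in all). After centring, 3 were called lower, against 16.4% of all genes, and 1 higher, against 11.9%. Among SP arrays 4 were lower and 0 higher, against 50.7% and 2.77% (53.5% in all), and on centred values the same count stood against 21.3%. The share of members on the deposited values is near that background, whose median difference was -0.58 among non-SP arrays and -0.60 among SP arrays, and the differences that were called are therefore also given relative to that median.

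**Figure D1:**
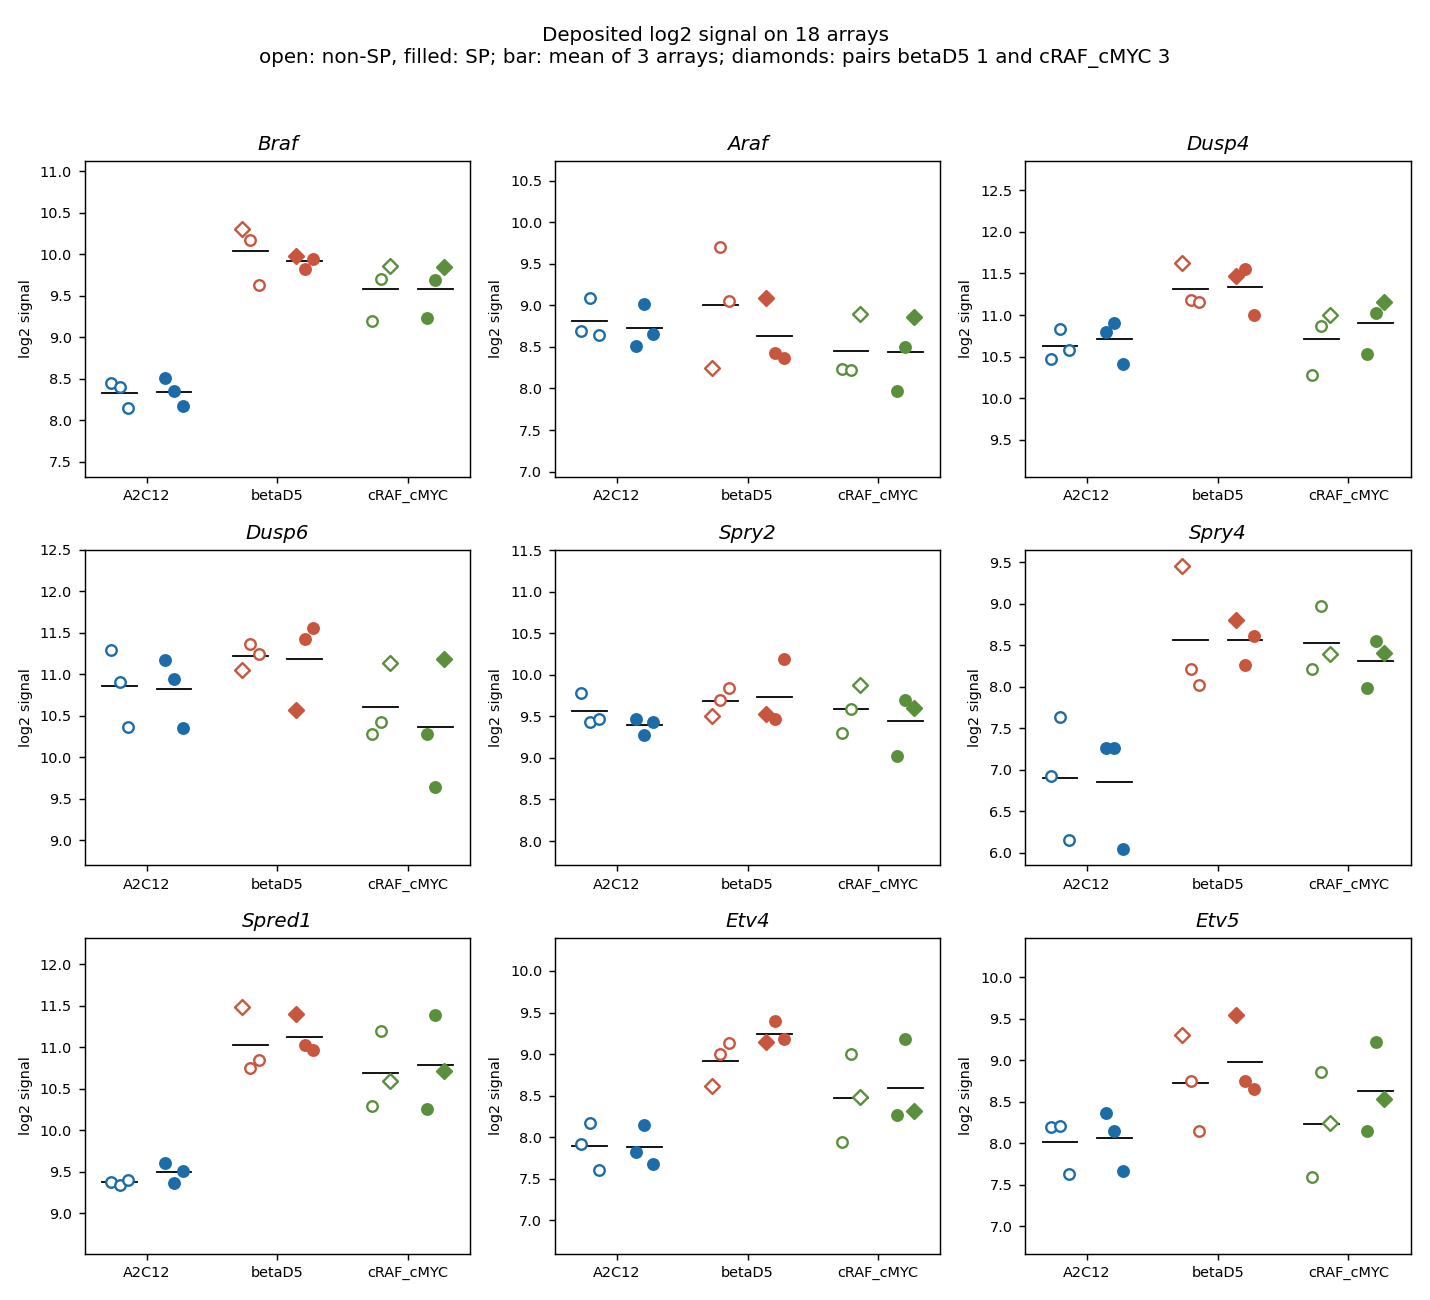
Deposited log2 signal (y axis) of the 9 genes on 18 arrays, by line (x axis, colour) and fraction (open, non-SP, and filled, SP), with a bar at the mean of 3 arrays and diamonds for the pairs betaD5 1 and cRAF_cMYC 3. The 6 A2C12 arrays lie below the 12 others for Braf, Spry4 and Spred1, and their range overlaps that of the others for the other 6 genes.

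Braf, the RAF isoform with the strongest activity towards MEK, had deposited log2 signals of 8.45, 8.40 and 8.14 in A2C12 non-SP arrays and 8.51, 8.35 and 8.17 in A2C12 SP arrays. In betaD5 they were 10.30, 10.17 and 9.63 in non-SP and 9.98, 9.82 and 9.95 in SP arrays. In cRAF_cMYC they were 9.20, 9.70 and 9.85 in non-SP and 9.23, 9.68 and 9.84 in SP arrays. Every A2C12 array was below every array of the other lines, whose ranges overlapped each other. Among non-SP arrays the difference was -1.48 (SE 0.21, n = 3 arrays a group, adjusted p = 3.9e-05), which is 0.359 of the level of the other lines on the linear scale. Relative to the median gene it was -0.90, and it was -0.94 (SE 0.17, adjusted p = 0.000745) on centred arrays. SP arrays gave -1.41 (SE 0.21, adjusted p = 5.69e-05), which is -0.81 relative to the median gene, and, centred, -0.92 (adjusted p = 0.000807). Without the pairs betaD5 1 and cRAF_cMYC 3 the difference was -1.34 (adjusted p = 0.000217) among non-SP and -1.33 (adjusted p = 0.00021) among SP arrays. The groups stayed apart after centring, where A2C12 arrays lay between 8.57 and 8.83 and the others between 9.19 and 10.07.

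Araf, the second RAF kinase measured, ran the other way in its highest probe set on centred arrays without passing the test. Its deposited log2 signals were 8.69, 9.09 and 8.64 in A2C12 non-SP arrays and 8.51, 9.01 and 8.66 in A2C12 SP arrays. The betaD5 arrays read 8.25, 9.70 and 9.05 in non-SP and 9.09, 8.42 and 8.37 in SP cells. Those of cRAF_cMYC read 8.23, 8.22 and 8.90 in non-SP and 7.97, 8.497 and 8.86 in SP cells. The ranges of all 3 lines overlapped, and betaD5 held both the highest array and the widest spread. A2C12 differed from the others by 0.08 (SE 0.29, 95% interval -0.54 to 0.70, adjusted p = 0.825) among non-SP arrays and by 0.62 (adjusted p = 0.103) after centring. Among SP arrays the difference was 0.19 (SE 0.29, adjusted p = 0.592) and, centred, 0.68 (adjusted p = 0.0683), and it passed the test with quantile normalization, at 0.80 (adjusted p = 0.0402). It was 0.01 among non-SP and 0.41 among SP arrays, not called, without the pairs betaD5 1 and cRAF_cMYC 3. With centring and without the pairs betaD5 1 and cRAF_cMYC 3 it was higher, by 0.56 (adjusted p = 0.0321) among non-SP and by 0.91 (adjusted p = 0.00166) among SP arrays. That setting was chosen after seeing the data and leaves 2 arrays a group in the other lines. Of 36 alternatives 1, this setting, called Araf among non-SP arrays. A test of Araf against Braf was not made, since levels of different probe sets cannot be set against each other.

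Spred1, whose product recruits the RAS inhibitor neurofibromin, was steady within A2C12, at 9.37, 9.35 and 9.40 in non-SP and 9.61, 9.37 and 9.51 in SP arrays. The betaD5 arrays gave 11.49, 10.75 and 10.84 in non-SP and 11.39, 11.02 and 10.97 in SP cells. The cRAF_cMYC arrays gave 10.29, 11.19 and 10.59 in non-SP and 10.26, 11.39 and 10.71 in SP cells. A2C12 lay below both other lines in all arrays, and betaD5 and cRAF_cMYC overlapped. The difference was -1.48 (SE 0.25, adjusted p = 0.000192) among non-SP and -1.46 (SE 0.25, adjusted p = 0.000197) among SP arrays. Relative to the median gene these were -0.90 and -0.86, and without the pairs betaD5 1 and cRAF_cMYC 3 they were -1.40 (adjusted p = 0.000533) and -1.41 (adjusted p = 0.000419). Centred, they were -0.95 (adjusted p = 0.00375) and -0.97 (adjusted p = 0.00281), with all A2C12 arrays still below the others.

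Spry4, a Sprouty inhibitor of receptor signalling, spread by over 1 log2 unit within A2C12. A2C12 gave 6.93, 7.64 and 6.15 in non-SP and 7.26, 7.26 and 6.05 in SP arrays. In betaD5 the values were 9.45, 8.21 and 8.03 in non-SP and 8.81, 8.26 and 8.61 in SP arrays, and in cRAF_cMYC they were 8.22, 8.98 and 8.39 and then 7.98, 8.55 and 8.40. A2C12 lay below both other lines on the deposited values, and those lines overlapped each other. After centring the highest A2C12 array, at 7.89, was above the lowest of the others, at 7.59. The difference was -1.64 (SE 0.36, adjusted p = 0.00168) among non-SP and -1.58 (SE 0.36, adjusted p = 0.00204) among SP arrays, and after centring -1.10 (adjusted p = 0.0247) and -1.09 (adjusted p = 0.0241). Relative to the median gene the values were -1.06 and -0.98. Without the pairs betaD5 1 and cRAF_cMYC 3 they were -1.45 (adjusted p = 0.0030) and -1.49 (adjusted p = 0.00221).

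Spry2, the other Sprouty gene measured, had log2 signals of 9.78, 9.43 and 9.47 in A2C12 non-SP arrays and 9.47, 9.28 and 9.43 in A2C12 SP arrays. The betaD5 arrays read 9.51, 9.70 and 9.84 in non-SP and 9.52, 9.47 and 10.19 in SP cells. Those of cRAF_cMYC read 9.30, 9.58 and 9.88 in non-SP and 9.02, 9.70 and 9.61 in SP cells. The ranges of the lines overlapped. The deposited difference between A2C12 and the other lines was -0.07 (SE 0.21, 95% interval -0.52 to 0.38, adjusted p = 0.786) among non-SP arrays. On centred arrays it was 0.46 higher in A2C12 (SE 0.16, adjusted p = 0.0434), so that the sign and the call turn with the scaling, and among SP arrays the deposited value of -0.19 and the centred value of 0.30 (adjusted p = 0.179) did not pass. Relative to the median gene the non-SP value was 0.51, and without the pairs betaD5 1 and cRAF_cMYC 3 the deposited values were -0.04 and -0.21. The range of the A2C12 arrays overlapped that of the others on both scales.

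Counted over all genes tested, the 6 A2C12 arrays were below the 12 others for 28.1% of genes on the deposited values and for 12.5% on centred values, and 3 members (Braf, Spred1, Spry4) and 2 members (Braf, Spred1) belonged to these. For 0 of the 9 members were they above all others, where 1.77% and 7.15% of genes were. Of the 10916 differences in rank order from the lowest, Spry4 stood at the 4.75th percentile among non-SP arrays, Spred1 at the 6.76th and Braf at the 6.89th, and Etv4 at the 32.4th.

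**Figure D2:**
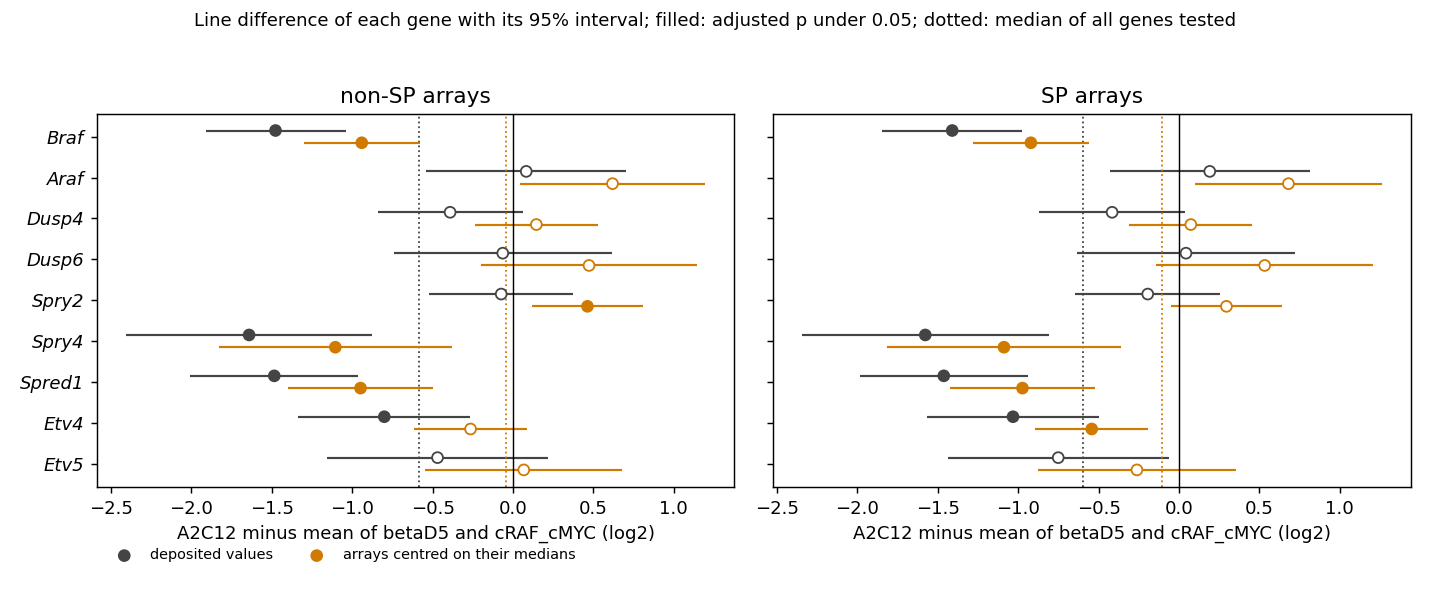
Difference of A2C12 from the mean of betaD5 and cRAF_cMYC in log2 (x axis) for each gene (y axis), with its 95% interval, in non-SP arrays (left) and SP arrays (right), on deposited values (grey) and centred arrays (orange); filled points passed an adjusted p of 0.05 and dotted lines mark the median of all genes tested. Braf, Spry4 and Spred1 pass in all 4 settings, and Etv4 in 3 of them.

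Dusp4 and Dusp6, the ERK phosphatases, had no called line difference with all arrays. Dusp4 read 10.47, 10.84 and 10.58 in A2C12 non-SP arrays and 10.80, 10.91 and 10.42 in A2C12 SP arrays. The betaD5 arrays read 11.62, 11.18 and 11.15 in non-SP and 11.47, 11.55 and 11.003 in SP cells. Those of cRAF_cMYC read 10.28, 10.86 and 10.9998 in non-SP and 10.53, 11.02 and 11.16 in SP cells. A2C12 overlapped cRAF_cMYC and lay below every betaD5 array, and the line difference of -0.39 (SE 0.21, adjusted p = 0.131) became 0.15 after centring. Leaving out the pairs betaD5 1 and cRAF_cMYC 3 gave -0.24 among non-SP and -0.32 among SP arrays, not called. It passed the test without the pair cRAF_cMYC 1, at -0.50 (adjusted p = 0.0209) among non-SP and -0.51 (adjusted p = 0.0187) among SP arrays. Dusp6 gave 11.29, 10.90 and 10.37 in A2C12 non-SP arrays, 11.06, 11.37 and 11.24 in betaD5 and 10.28, 10.42 and 11.13 in cRAF_cMYC. Its SP arrays read 11.17, 10.94 and 10.35 in A2C12, 10.57, 11.42 and 11.56 in betaD5 and 10.29, 9.64 and 11.18 in cRAF_cMYC. The A2C12 arrays fell inside the range of the others, and the difference was -0.06 (SE 0.32, 95% interval -0.74 to 0.62) among non-SP and 0.04 (SE 0.32) among SP arrays, and 0.02 and 0.09 without the pairs betaD5 1 and cRAF_cMYC 3. The pair of each line that stood apart from its label also stood apart here: betaD5 1 had the lowest Dusp6 of its line and cRAF_cMYC 3 the highest of its own.

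The ETS factor Etv4 was at 7.92, 8.17 and 7.60 in A2C12 non-SP arrays and at 7.82, 8.14 and 7.68 in A2C12 SP arrays. In betaD5 it was at 8.61, 9.001 and 9.14 and then 9.15, 9.39 and 9.18, and in cRAF_cMYC at 7.94, 9.002 and 8.48 and then 8.26, 9.18 and 8.32. A2C12 stayed below betaD5 throughout and overlapped cRAF_cMYC through 1 array, the non-SP array of its pair 1. The difference was -0.80 (SE 0.25, adjusted p = 0.0151) among non-SP arrays, -0.22 relative to the median gene, and -0.26 (adjusted p = 0.252) when centred. Leaving out the pair A2C12 3 gave -0.65 (adjusted p = 0.107), and leaving out the pair A2C12 1 gave -0.81 (adjusted p = 0.0538). Among SP arrays it was -1.03 (SE 0.25, adjusted p = 0.00311), which is -0.43 relative to the median gene, and -0.54 (adjusted p = 0.0208) when centred. Without the pairs betaD5 1 and cRAF_cMYC 3 the deposited values were -0.87 (adjusted p = 0.0167) among non-SP and -1.12 (adjusted p = 0.00363) among SP arrays.

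Etv5, the close relative of Etv4, had log2 signals of 8.20, 8.21 and 7.63 in A2C12 non-SP arrays and 8.36, 8.14 and 7.67 in A2C12 SP arrays. The betaD5 arrays read 9.30, 8.75 and 8.14 in non-SP and 9.54, 8.75 and 8.66 in SP cells. Those of cRAF_cMYC read 7.60, 8.86 and 8.24 in non-SP and 8.15, 9.22 and 8.53 in SP cells. The ranges of the 3 lines overlapped. The line difference was -0.47 (SE 0.33, adjusted p = 0.231) among non-SP and -0.75 (SE 0.33, adjusted p = 0.0605) among SP arrays, and centred it was 0.07 and -0.26. The values without the pairs betaD5 1 and cRAF_cMYC 3 were -0.33 and -0.64, not called. Among SP arrays it passed in 6 of 36 alternatives, among them without the pair cRAF_cMYC 1, at -0.87 (adjusted p = 0.0219).

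The other probe sets of a gene bore out these differences to different degrees. For Braf, 8 of 8 other probe sets were lower in A2C12 among non-SP arrays, by -1.92 to -0.64, and 7 were called. Centred, all 8 were below 0 and 2 were called. Spred1 had 7 of 7 lower and 3 called on the deposited values, but after centring they lay between -0.49 and 0.28 with 0 called, against -0.95 for its highest probe set. Spry4 had 3 of 3 lower with 2 called, and between -0.48 and 0.34 with 0 called when centred. The 1 other probe set of Etv4, below the filter, was at -1.13 (adjusted p = 0.00811) and at -0.59 when centred. The 4 others of Araf ranged from -0.62 to -0.08 with 0 called, all of the opposite sign to its highest probe set (0.08). Centred, they lay between -0.09 and 0.46 among non-SP and between -0.67 and 0.31 among SP arrays, with 0 called. The higher Araf of centred arrays was thus not borne out by them. Of the 2 weak ones of Etv5, 1 was called higher in A2C12 on centred arrays, by 0.87 (adjusted p = 0.00906). No other probe set of Dusp4 or Dusp6 carried its symbol alone.

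**Figure D3:**
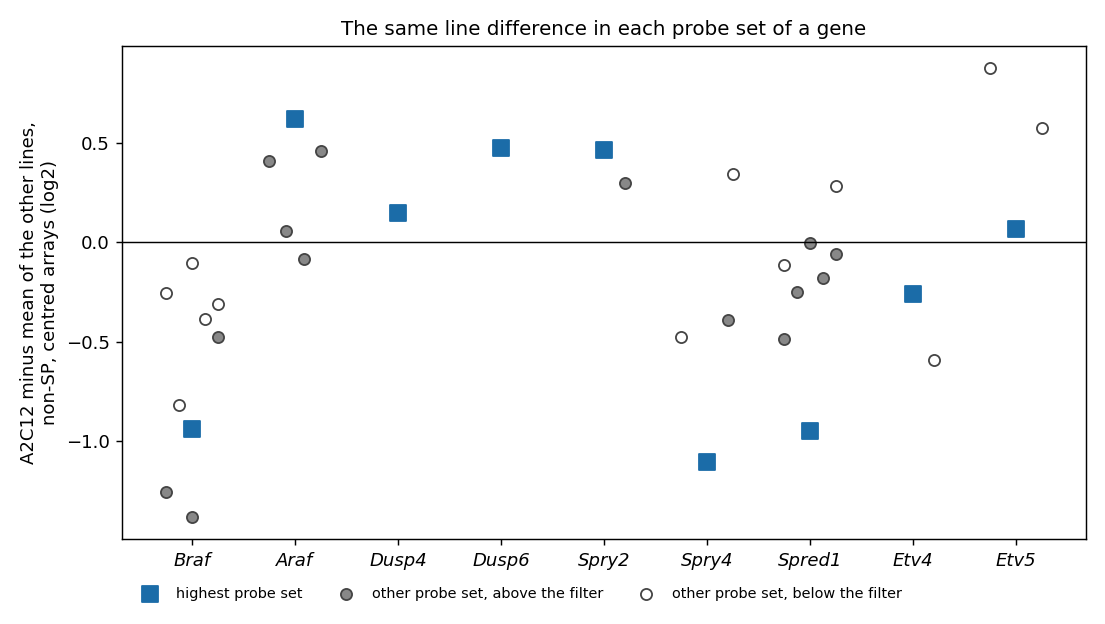
Difference of A2C12 from the mean of the other lines (y axis, log2, non-SP, centred arrays) in every probe set of each gene (x axis): squares are the highest probe set, filled circles the others above the filter, open circles those below it. All 9 probe sets of Braf lie below 0, while those of Spred1 other than the highest lie between -0.49 and 0.28.

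betaD5 and cRAF_cMYC were compared to see whether the 2 remaining lines differ. With all arrays 0 of the 9 members were called in either fraction, against 0% of all genes (limma; 689 genes at an unadjusted p under 0.05 among non-SP and 509 among SP arrays). The interval of the Braf difference, betaD5 minus cRAF_cMYC, ran from -0.05 to 0.95 among non-SP arrays. Without the pairs betaD5 1 and cRAF_cMYC 3, 1222 genes were called among non-SP arrays, 8.02% of all higher in betaD5 and 3.17% lower, and 1260 among SP arrays, 8.87% higher and 2.67% lower. Of the members, Araf was then higher in betaD5 among non-SP arrays, by 1.15 (SE 0.31, adjusted p = 0.0243), and by 0.74 (adjusted p = 0.0523) on centred arrays. Dusp6 was higher among SP arrays, by 1.53 (SE 0.34, adjusted p = 0.00744), and by 1.17 (adjusted p = 0.0303) on centred arrays. These calls rest on 2 arrays a group. The pairs were left out because they resembled the other of these lines, a choice that bears on the difference tested, so these p-values and counts describe the remaining arrays and are no independent test. With all arrays the values were 0.55 for Araf among non-SP (adjusted p = 0.592) and 0.82 for Dusp6 among SP arrays (adjusted p = 0.605).

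Between SP and non-SP cells no member passed the test in any line or in the mean of the lines, where 0% of all genes did. By limma, 1 gene in A2C12, 14 in betaD5, 18 in cRAF_cMYC and 36 in the mean had an unadjusted p under 0.05, and 187, 1298, 899 and 1437 with SP and non-SP arrays of the same number taken as pairs, where 0 were called too. The difference of the SP effect between lines was called for 0 genes in each of the 3 pairs of lines (3, 3 and 0 genes at an unadjusted p under 0.05). A gene had a median 95% half-width of 0.34 for the mean of 3 lines and of 0.14 with the pairing.

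**Figure D4:**
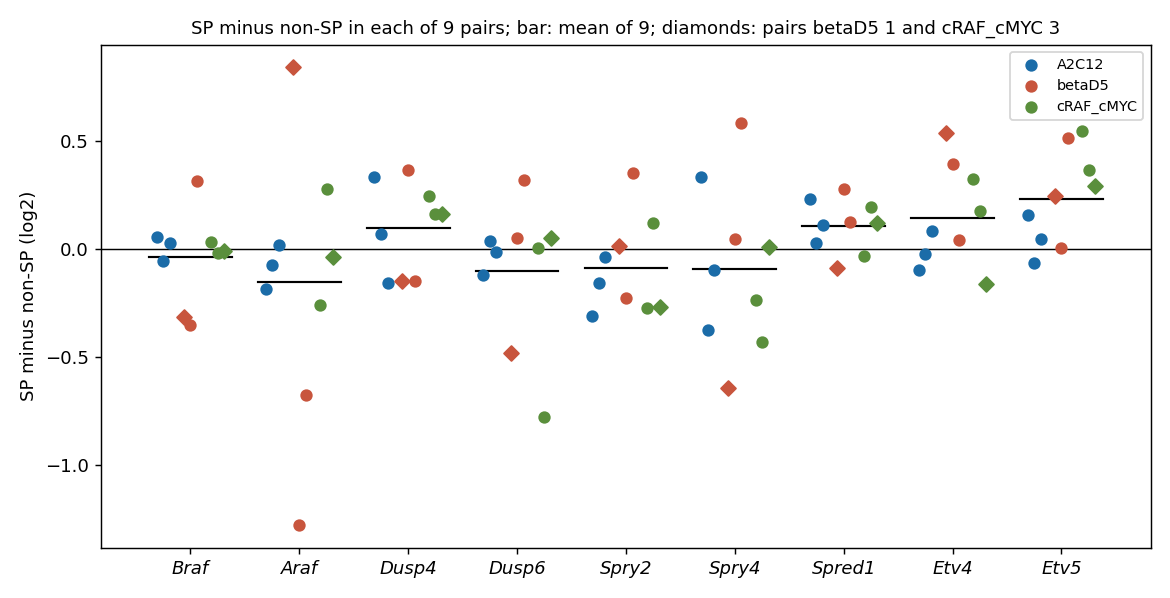
SP minus non-SP in log2 (y axis) of each gene (x axis) in the 9 pairs of arrays, coloured by line, with a bar at the mean and diamonds for the pairs betaD5 1 and cRAF_cMYC 3. For Etv5 8 of 9 pairs lie above 0, and for Araf the pairs of betaD5 spread from -1.28 to 0.84.

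Etv5 was higher in SP cells in 8 of 9 pairs. The pair differences were 0.16, -0.06 and 0.04 in A2C12, 0.24, 0.00 and 0.52 in betaD5 and 0.55, 0.36 and 0.29 in cRAF_cMYC. Their mean was 0.23 (SE 0.22, 95% interval -0.22 to 0.69, adjusted p = 0.9998), and with the pairs as a block the SE was 0.06 and the interval 0.09 to 0.38 (adjusted p = 0.224). The 2 other, weaker probe sets of Etv5 gave 0.09 and -0.05. Without the pairs betaD5 1 and cRAF_cMYC 3 the mean was 0.25.

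Etv4 was higher in SP cells in 6 of 9 pairs, from -0.16 to 0.54, with a mean of 0.14 (SE 0.17, 95% interval -0.22 to 0.50), and all 3 pairs of betaD5 were above 0 (0.54, 0.39 and 0.04). Spred1 was higher in 7 of 9 pairs, from -0.09 to 0.28 (mean 0.11, SE 0.17), and Dusp4 in 6 of 9 (mean 0.10, SE 0.14). Dusp6 had a mean of -0.10 (SE 0.21), with 1 pair, cRAF_cMYC 2, at -0.78 and the others between -0.48 and 0.32. Spry2 was lower in 6 of 9 pairs, all 3 of A2C12 among them (-0.31, -0.16 and -0.04), with a mean of -0.09 (SE 0.14). Spry4 differed by 0.33, -0.37 and -0.10 in the pairs of A2C12, -0.64, 0.05 and 0.58 in betaD5 and -0.23, -0.43 and 0.01 in cRAF_cMYC, with a mean of -0.09 (SE 0.24). Braf stayed within 0.06 of 0 in the pairs of A2C12 (0.06, -0.06 and 0.03) and within 0.03 in those of cRAF_cMYC (0.03, -0.02 and -0.01), and differed by -0.31, -0.35 and 0.32 in betaD5, with a mean of -0.04 (SE 0.14). With the pairs as a block, the 95% intervals of all 8 members other than Etv5 included 0. The nearest to excluding it were Spred1 (SE 0.06, interval -0.01 to 0.23, adjusted p = 0.434) and Etv4 (SE 0.07, interval -0.01 to 0.30, adjusted p = 0.424), and the blocked SE of the others ran from 0.07 for Dusp4 to 0.17 for Araf.

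Araf had the widest spread between pairs, with 0.84, -1.28 and -0.68 in betaD5, -0.19, -0.07 and 0.02 in A2C12 and -0.26, 0.28 and -0.04 in cRAF_cMYC. Its mean was -0.15 (SE 0.20) and, in betaD5, -0.37 (SE 0.34). The 4 other probe sets of Araf gave 0.12 to 0.39 in betaD5, all of the opposite sign. The Gapdh control probe sets at the 3′ end exceeded those at the 5′ end, a sign of shortened RNA or cDNA, by a log2 ratio of 0.76 and 0.97 on the SP arrays of betaD5 2 and 3, against at most 0.56 on any non-SP array. With this ratio as a covariate the betaD5 difference of Araf was 0.27 (SE 0.22) with the pairs as a block and 0.07 (SE 0.36) without the block, both of the opposite sign. In betaD5 the high ratios fell on SP arrays alone, so the ratio and the fraction cannot be told apart there. The part of the ratio in the Araf difference was not tested.

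Profiles over the 18 arrays, each centred on its own mean, were compared by their root mean square difference in log2, as a description with no test. Nearest to Braf were Gng12 (0.12) and Met (0.13), against a median of 0.52 over all genes, and Spred1 stood at 0.27. Nearest to Spred1 were Riok3 (0.12) and Epb41l1 (0.13). Spry4 had no gene closer than Csgalnact2 and Strbp (0.30 each, median 0.71), and Braf, at 0.40, was its 75th nearest gene. Araf was nearest to Arpc4 (0.15) and Ccndbp1 (0.19), and its distance to Braf of 0.83 was above the median of 0.59. Nearest to Dusp4 were Rab6a and Akirin2 (0.14 each), to Dusp6 Zfp704 and Ddhd1 (0.24 each), to Spry2 Zfp30 and Sgsh (0.15 each), to Etv4 Utp18 (0.16) and Shq1 (0.17), and to Etv5 Erbin (0.19) and Vps54 (0.20). The distances were taken on deposited values, so the array medians, which differ between lines and within them, enter these distances.

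Around these genes, the chain from RAS to ERK had 3 of 13 tested genes called lower and 1 higher in A2C12 non-SP arrays, against 49.2% and 2.96% of all genes, with a list median of -0.43 beside -0.58 over all genes, and 2 lower and 1 higher on centred arrays, against 16.4% and 11.9%. Ptpn11, a phosphatase that relays receptor signals to RAS, was at -1.31 (SE 0.22, adjusted p = 0.000187) and -0.77 when centred (adjusted p = 0.00114). Shoc2, a scaffold that helps activate RAF, was at -0.95 (adjusted p = 0.0021) and -0.41 when centred (adjusted p = 0.0312), and Sos1, a RAS exchange factor, at -0.75 (adjusted p = 0.0295) and -0.22 (adjusted p = 0.492). Ksr1, the scaffold that holds RAF, MEK and ERK together, was higher in A2C12, by 0.97 (SE 0.30, adjusted p = 0.0125) and 1.51 when centred (adjusted p = 0.000492).

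Of the other inhibitors of RAS and RAF, 8 of 13 tested genes were called lower in A2C12 and 0 higher, not far from the 49.2% of all genes, with a median of -0.66, but 0 were called in either direction after centring, with a median of -0.12 beside -0.04 over all genes. Those with the smallest adjusted p were Rasa1, a RAS GTPase activator (-1.19, adjusted p = 0.00323, and -0.66 centred, adjusted p = 0.0546), Spry1 (-0.79 and -0.25), Rasal2 (-0.91 and -0.38) and Pebp1, which binds RAF (-0.56 and -0.03). Of 19 tested genes listed as raised by ERK signalling, 9 were called lower and 1 higher, a share near the 49.2% of all genes called lower, and after centring 2 and 3, against 16.4% and 11.9%. The lists overlap: Spry1 and Spred2 are also among the inhibitors, and Epha2, Ereg and Hbegf among the receptor kinases and ligands below. Ereg and Hbegf, ligands of the EGF receptor family, were at -1.84 (adjusted p = 0.00124) and -1.06 (adjusted p = 0.00295), and at -1.31 (adjusted p = 0.0106) and -0.52 (adjusted p = 0.0755) when centred. The Eph receptors Epha2 and Epha4 were at -1.21 and -2.23, and at -0.67 (adjusted p = 0.0852) and -1.69 (adjusted p = 0.0409) when centred. Epha4 had a non-SP mean of 5.00 in A2C12, under the filter mean of 6.53. It passed the filter through betaD5 (7.73) and cRAF_cMYC (6.73).

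In the mean of SP minus non-SP over 3 lines, 0 genes of these 3 lists were called. Those with the smallest p were Sos2 (0.23, SE 0.18) and Rap1b (0.12, SE 0.11) in the chain, Rasal2 (0.17, SE 0.19) and Rasa3 (-0.17, SE 0.20) among inhibitors, and Egr1 (-0.36, SE 0.18) and Lif (-0.19, SE 0.17) among genes raised by ERK. This order and these SE are from the fit without the pairing, where the median SE of a gene was 0.16, against 0.07 with the pairs as a block.

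Markers of other cell types were read in the same comparison, against 49.2% of all genes called lower on the deposited values and 16.4% on centred values. Of 9 mesothelial markers, all above the filter, 6 were called lower and 0 higher in A2C12 non-SP arrays, and 6 lower and 1 higher when centred. Their median difference was -4.58, with 7 below 0 and 2 above, and -4.05 when centred. In A2C12 non-SP arrays Gpm6a, Upk3b, Lrrn4, Wt1 and Bnc1 had means of 3.03 to 5.59, under the filter mean of 6.53. They passed it through betaD5 and cRAF_cMYC, where their non-SP means ran from 9.86 to 12.73. The log2 of the summed linear signal of all 9 markers ran from 11.69 to 12.67 in A2C12, from 14.12 to 15.25 in betaD5 and from 13.19 to 15.07 in cRAF_cMYC. In A2C12 Krt19, at a non-SP mean of 11.65 and also an epithelial marker here, added the most to this sum. Of 11 fibroblast markers above the filter 7 were lower, and 5 when centred, with summed levels of 15.04 to 15.56 in A2C12 and 16.28 to 16.89 in the other lines. Of 7 epithelial markers 2 were lower, Epcam (-1.03, adjusted p = 0.00402) and Muc1 (-0.73, adjusted p = 0.0152), and when centred 0 were lower and 2 higher, Krt8 (0.66) and Esrp2 (0.72). Their summed level, to which Krt19 adds the most, ranged from 11.90 to 12.77 in A2C12 and from 11.19 to 12.62 in the others. Cdh1, below the filter and not tested, had a non-SP mean of 6.31 in A2C12, 4.76 in betaD5 and 3.87 in cRAF_cMYC. Also below the filter, Cldn4 and Esrp1 were lowest in A2C12, and Cldn7 lay between the other lines. Of 8 leukocyte markers 5 passed the filter (Cd68, Lyz2, Cd14, Csf1r and Cd3e, with Ptprc below it), with 0 called and summed levels of 10.68 to 11.21 in A2C12, 10.37 to 12.29 in betaD5 and 9.78 to 12.18 in cRAF_cMYC. Of 7 endothelial markers 2 passed the filter, Kdr (-0.97, adjusted p = 0.00142) and Esam (-0.78, adjusted p = 0.00143), with 0 called when centred and with Pecam1 and Cdh5 below the filter. Postn (4.90), Thy1 (5.28), Esam (6.21), Lyz2 (6.40) and Muc1 (6.43) also had A2C12 non-SP means under 6.53 and passed the filter through the other lines. The part of these marker differences in the values of Braf, Spred1, Spry4 and Etv4 was not tested.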

How the data were processed

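Biotin-labelled cRNA (10 µg, made from 200 ng of total RNA) had been hybridised to Affymetrix 3' expression arrays, and the submitters' processing notes name Affymetrix Expression Console, with the summary algorithm and normalization not given in the sources used here. The authors deposited log2 signals (2.28 to 15.28) of 45101 probe sets on each of 18 arrays. Of these, 64 control probe sets were left out, 34945 had 1 gene symbol in the platform annotation, 932 had several and 9160 had none, and 34741 were matched to current symbols. Each of 18193 genes was read from its probe set with the highest mean, and the lowest 40% (mean log2 under 6.53) were left out. The mean was over all 18 arrays, so a gene under 6.53 in A2C12 could pass through the other lines. Precision is limited by the number of arrays.

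limma 3.58.1 in R 4.3.3 (lmFit, contrasts.fit, eBayes with a trend) fitted 6 group means with 12 residual degrees of freedom, two-sided, with Benjamini-Hochberg adjustment over all 10916 genes tested and calls at an adjusted p under 0.05, in 11 comparisons. The fits were tested on simulated data. Replicate numbers were taken to pair SP and non-SP arrays: after removal of the group means, arrays of 1 number correlated at 0.426 to 0.952 in 9 pairs, and 8 of 9 did so best with their own number. The fit with pairs as a block had 6 residual degrees of freedom. The alternatives tried were centring each array on its median, quantile normalization, other filters and probe sets, no trend, the block, the Gapdh 3′ to 5′ ratio as covariate, and leaving out arrays and pairs, and 1, centring without the pairs betaD5 1 and cRAF_cMYC 3, was chosen after seeing the data.

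The members, the gene lists and the comparisons were chosen with earlier results of these data known. Beside the members, the genes named were up to 4 of each list with the smallest adjusted p past the threshold between A2C12 and the other lines in non-SP arrays, those past it in the mean SP difference (or, with none, the 2 with the smallest p), and, for members whose range exceeded 1, the 2 genes of nearest profile. Promoter windows are from RefSeq (GRCm38.p6).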

Additional observations from a re-analysis of the deposited data

How the results depend on the processing

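Braf, Spred1 and Spry4 were called lower in A2C12 in both fractions under every alternative of scaling, filter, trend, covariate and left-out arrays (36, 36 and 35 of them), from -1.58 to -0.79 for Braf, -1.58 to -0.76 for Spred1 and -2.01 to -0.90 for Spry4 among non-SP arrays. Replacing the probe set ended calls of these genes, as given with the probe sets. Spry2 among non-SP arrays turned to higher in A2C12 with quantile normalization (0.51), centring (0.46) and centring without the pairs betaD5 1 and cRAF_cMYC 3 (0.51). Araf among SP arrays turned to lower with 1 of its other probe sets (-1.16, adjusted p = 0.0229). Etv4 lost its call with quantile normalization, at -0.30 among non-SP and -0.45 among SP arrays.

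Genes called between A2C12 and the other lines among non-SP arrays, 5697 of 10916 (94.3% of them lower), were 3544 with quantile normalization (53.7% lower) and 3095 with centring (58.0% lower). With no filter 9376 were called, but of all 18193 genes. Among SP arrays, 5839 (94.8% lower) became 3689 (53.5% lower) with quantile normalization and 3426 (67.9% lower) with centring. Leaving out single arrays or pairs gave 3537 to 7238 among non-SP and 3863 to 7295 among SP arrays, the lowest of each without the pair A2C12 3, with 3 to 5 and 4 to 6 members called. Between betaD5 and cRAF_cMYC, 0 genes and 0 members became 1222 genes and 1 member among non-SP and 1260 genes and 1 member among SP arrays without the pairs betaD5 1 and cRAF_cMYC 3. With centring as well they were 1895 genes, and 1664 genes and 1 member, and single arrays or pairs left out gave 0 to 1 gene. Beyond the larger number of genes tested with no filter, the cause of these changes was not tested.

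For SP minus non-SP, the replicate block changed no call: 0 genes and 0 members. The replicate block without the pairs betaD5 1 and cRAF_cMYC 3 called 15 genes in betaD5, and the replicate block with the Gapdh ratio called 22 in betaD5 and 1 in the mean of the lines, with 0 members in each. With 3 arrays a group, median half-widths of 0.59 for a difference in 1 line, and of 0.25 with the pairs as a block, limit what could be seen. The pairing of betaD5 2 and 3 is the least settled.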

Other observations

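Receptor tyrosine kinases and their ligands, which feed the RAS to ERK chain, were read in the same comparison of A2C12 with the other lines. Of 15 kinases tested, 6 were called lower in non-SP arrays and 0 higher, a share below the 49.2% of all genes called lower, and on centred arrays 2 lower and 2 higher, near the 16.4% and 11.9% of all genes. Met, the hepatocyte growth factor receptor, was at -1.40 (SE 0.21, adjusted p = 6.84e-05) and at -0.87 when centred (adjusted p = 0.00184). Pdgfrb was at -1.42 and at -0.88 when centred (adjusted p = 0.0312), while Egfr, at -1.06, and Epha2, at -1.21, lost their calls on centred arrays (-0.52 and -0.67).

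Of 13 ligands, 7 were called lower and 2 higher, against 49.2% and 2.96% of all genes, and only the first is near its share. On centred arrays 4 were lower and 3 higher, against 16.4% and 11.9% of all genes. The medians were -1.02 and, centred, -0.48, beside -0.58 and -0.04 over all genes. Igf2, a growth factor of fetal tissues, was higher in A2C12 by 4.34 (SE 0.33, adjusted p = 5.76e-08) and by 4.88 when centred. Kitl, the ligand of KIT, was at -2.30 (SE 0.27) and at -1.77 when centred, Pdgfc at -1.99 and -1.45, and Ereg at -1.84 and -1.31. For SP minus non-SP, 0 genes of both lists were called. Those with the smallest p in the fit without the pairing were Insr (-0.17) and Fgfr4 (-0.06), and Igf1 (-0.47, SE 0.19) and Btc (0.31, SE 0.20).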
